A study of Mus musculus with 2 samples.

Results

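Cdkn1a, E2f1 and Mycn were the 3 growth control genes examined here, out of 2132 Ensembl genes to which the deposited macroH2A1 peak list assigns a peak. They were chosen by their symbol in that list, where they hold 4 of 2560 peaks, so having a peak is what selected them and is no finding. The list comes from ChIP-seq, sequencing of DNA pulled down with an antibody to a chromatin protein, in E14, an established line of mouse embryonic stem cells grown in medium with leukemia inhibitory factor (LIF, 1000 U/ml) and given no further treatment. The macroH2A1 library used an antibody raised against residues 128 to 361 of mouse macroH2A1, and its companion library used non-specific IgG. There is 1 library per antibody, all from 1 line, and no values of the IgG library were analysed here. Every value below therefore describes 1 peak list, with no replicate error and no test. The list holds positions and no read counts, so depth is unknown, and it holds no expression values against which the identity of the cells could be checked.

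MacroH2A1 is a histone variant that replaces the common H2A in some nucleosomes and carries a large extra domain, the macrodomain, and it is mostly associated with repressed or developmentally silent chromatin. The 3 genes act on the decision of a cell to divide. Cdkn1a encodes p21, an inhibitor of cyclin-dependent kinases that p53 induces after DNA damage. E2f1 encodes a transcription factor that switches on genes of DNA replication once the retinoblastoma protein releases it, and Mycn encodes N-MYC, a growth-promoting transcription factor that is abundant in embryonic stem cells.

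The proximal promoters are shown first because the distances below are counted from the gene start, and because Cdkn1a has more than 1 start. Each is the run of 250 bases before a start in RefSeq (GRCm38.p6, whereas the peaks are in the earlier build mm9), written 5′ to 3′ on the strand of the gene. Capitals mark a sequence of the p53 response element type in the first and sites of the E2F type in the last.
Cdkn1a, outer start, chr17:29090729-29090978, plus strand: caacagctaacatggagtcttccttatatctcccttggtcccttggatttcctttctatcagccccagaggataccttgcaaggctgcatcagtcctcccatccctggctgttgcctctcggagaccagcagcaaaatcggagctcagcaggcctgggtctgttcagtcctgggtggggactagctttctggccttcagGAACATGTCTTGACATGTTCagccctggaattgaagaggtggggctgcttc
Cdkn1a, inner start, chr17:29093519-29093768, plus strand: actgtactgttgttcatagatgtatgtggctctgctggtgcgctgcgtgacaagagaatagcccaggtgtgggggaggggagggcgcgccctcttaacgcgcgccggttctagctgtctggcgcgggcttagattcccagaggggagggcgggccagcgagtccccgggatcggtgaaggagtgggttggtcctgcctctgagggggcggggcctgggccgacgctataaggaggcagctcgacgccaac
Mycn, chr12:12941837-12942086, minus strand: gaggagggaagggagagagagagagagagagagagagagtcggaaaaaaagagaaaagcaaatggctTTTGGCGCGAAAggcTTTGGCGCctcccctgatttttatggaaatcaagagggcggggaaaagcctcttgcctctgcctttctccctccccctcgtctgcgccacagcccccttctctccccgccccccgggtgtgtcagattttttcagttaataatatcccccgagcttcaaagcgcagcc

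The Cdkn1a sequence in capitals, 51 to 32 bases before the outer start, has 1 mismatch to the p53 response element (a pair of half-sites with no spacer). An exact match was searched first and was found in none of the windows of the 3 genes and in 0.00914% of 32817 RefSeq windows of this length. With at most 1 mismatch, a limit set after that search, 0.0762% of the windows hold one. The Mycn window holds the letters TTTGGCGC at 183 to 176 and at 168 to 161 bases before the start, and a site on the other strand, read there as TTTCGCGC, at 179 to 172 that overlaps the first. These belong to a search for TTTCCCGC, TTTCGCGC, TTTGCCGC and TTTGGCGC on both strands, which 1.86% of the windows hold. The E-box CACGTG, the core motif of the MYC family, was in none of the windows of the 3 genes and in 6.02% of all windows. These matches describe letters in a window and are not binding data. The only window available for E2f1 belongs to a start 466 bp inside the gene and is not shown. The bases before the outer RefSeq start of E2f1 were therefore not searched for any of these motifs.

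No macroH2A1 peak of the 3 genes reached the 250 bases before its gene start. A distance here is the gap in mm9 between the start and whichever peak edge is nearer. All 4 peaks lay upstream of their gene, as did 51.4% of all listed peaks, and 3 of the 4 lay within 10 kb, as did 25.2% of the listed upstream peaks (331 of 1316). No peak covered a gene start or any part of the gene. Their widths ran from 1101 to 2151 bp, a 1.95-fold range, around a median of 1551 bp for the whole list. Peak edges lie on a grid of 50 bp in every row, so a distance or a width is not resolved below that step.

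Cdkn1a had the widest of the 4 peaks, and also the closest by the nearer peak edge when counted from its outer start. By the deposited distance, which runs to the lower coordinate, it lay 4.52 kb away and the closer Mycn peak, at 3.31 kb, came first. The gene (ENSMUSG00000023067) occupies 29227924 to 29237667 on chromosome 17 in mm9, on the plus strand, and its peak spans 29223400 to 29225550. The peak begins 4.52 kb and ends 2.37 kb before the annotated start, a gap of 0.24 gene lengths. Of the listed peaks, 8.32% (213 of 2560) were as close to their gene start or closer, and 7.46% (191) had its width of 2151 bp or more. The start used in the list is the outer one, since the gene is 9744 bp long both in the list and in RefSeq. The inner start lies 2790 bp further downstream in GRCm38.p6, so the peak is more distant from it than from the outer start. From the inner start the peak is farther than 3.31 kb, so its place before Mycn and its 8.32% rank apply to the outer start only. The p53-type sequence lies between the peak and both starts.

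The promoter-side peak of Cdkn1a was the middle one of 3 peaks within 200 kb of its start. A peak of 1701 bp (29188000 to 29189700) lay 38.2 kb upstream of Cdkn1a and was assigned to Srsf3, a splicing factor gene listed as Sfrs3, whose start is 18.4 kb away. A peak of 2151 bp (29256100 to 29258250), equal in width to that of Cdkn1a, lay 28.2 kb past the Cdkn1a start and 18.4 kb past its end. It was assigned to Rab44, a small GTPase gene, whose start is 13.8 kb away. Each of the 3 exceeded the median width. The gaps between the Cdkn1a peak and its neighbours were 33.7 kb on the Srsf3 side and 30.6 kb on the Rab44 side. In RefSeq gene order, Trp53cor1, the lincRNA-p21 gene, stands between Srsf3 and Cdkn1a, and its position relative to these peaks was not analysed because the builds differ.

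Such a cluster was uncommon among genes with a peak. A total of 3 or more peaks within 200 kb was found at 11.4% of the 2132 assigned gene starts (244), against a median of 1. Within 50 kb, where Cdkn1a still had all 3, the share was 1.31% (28 starts). Only 1437 of the 2132 starts (67.4%) had any peak within 50 kb, and the share counts the starts without one too. Within 500 kb it had 7, a number reached at 3.33% (71 starts). Neighbouring starts count the same peaks, so these shares describe crowding and are not independent observations.

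Mycn was the only one of the 3 genes with more than 1 assigned peak, a property of 14.8% of all assigned genes (316 of 2132). The gene (ENSMUSG00000037169) occupies 12942905 to 12948642 on chromosome 12, on the minus strand, so its upstream side has the higher coordinates. Its closer peak, 12951950 to 12953050, began 3.31 kb upstream and was 1101 bp wide. In distance it ranked near Cdkn1a, with 10.9% of listed peaks as close or closer. In width it was at the other end, since 94.2% of listed peaks were as wide or wider, and the narrowest peak in the list had 1051 bp. The farther peak, 13018250 to 13019800, lay 69.6 kb upstream, which is 12.1 gene lengths, and had exactly the median width of 1551 bp. The 2 peaks were 65.2 kb apart.

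On the downstream side of Mycn, 2 more peaks lay within 200 kb of its start. They were 86.6 and 120 kb past the start, had widths of 1401 bp (12860600 to 12862000) and 1501 bp (12826950 to 12828450), and were assigned to Gm10168, which RefSeq names Rpl36-ps3, a pseudogene. Their distances from the start of that pseudogene were 56.8 and 90.3 kb. The protein-coding neighbours of Mycn in RefSeq order are Cyria, listed as Fam49a, on the downstream side and Ddx1, an RNA helicase gene, on the upstream side. The 4 peaks thus flanked Mycn on both sides, with 2 on each, and none was wider than the median. A total of 4 or more peaks within 200 kb occurred at 4.60% of assigned gene starts (98 of 2132). Unlike at Cdkn1a, only 1 of them was within 50 kb.

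E2f1 carried a lone peak. The gene (ENSMUSG00000027490) occupies 154385370 to 154395588 on chromosome 2, on the minus strand, and the peak (154405150 to 154406450, 1301 bp) began 9.56 kb upstream of its start. This gap is 0.94 of the gene length. Of the listed peaks, 23.0% were as close or closer and 77.5% were as wide or wider. In RefSeq order, the genes next to E2f1 on this upstream side are Gm39963, a long non-coding RNA gene, and Pxmp4, which encodes a peroxisomal membrane protein.

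No other peak lay within 200 kb of the E2f1 start, as at 56.5% of assigned gene starts (1204 of 2132), which also had exactly 1. The isolation extended much further. The nearest other peak was 2778 kb away on the side of the gene and 3036 kb away on the upstream side, whereas the median spacing in the list was 224 kb. Only 1.21% of the 2558 distinct regions (31) were at least that far from their nearest neighbour. The Cdkn1a and Mycn peaks were closer to another peak than the median, at 30.6 and 65.2 kb.

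**Figure D1:**
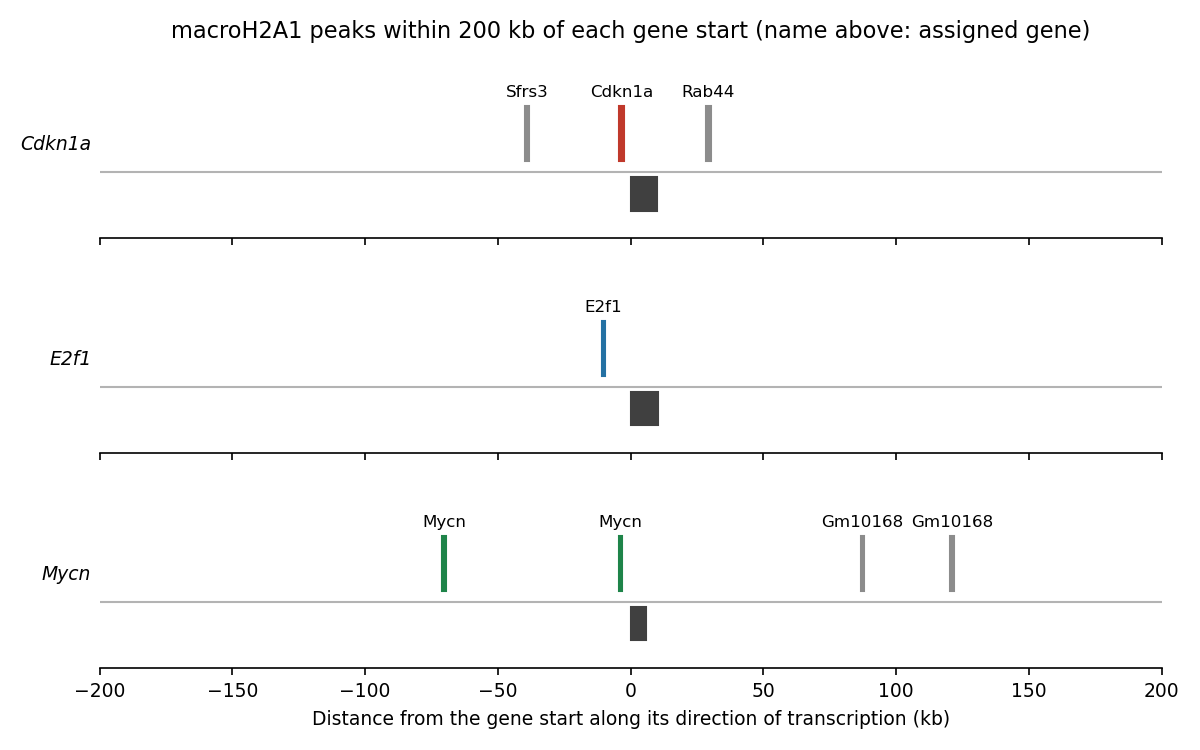
Peaks within 200 kb of each gene start, by distance in kb along the direction of transcription. Coloured bars are peaks assigned to the gene named at the left, grey bars are peaks assigned to the gene written above them, and dark boxes are the gene bodies; Cdkn1a has 3 peaks, E2f1 has 1 and Mycn has 4.

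Across the 200 kb windows the 3 genes had 8 peaks in all, of which 4 were their own. The farthest inside the limit was the Gm10168 peak 120 kb from the Mycn start, and the next one outside was a peak near Pi16, 240 kb past the Cdkn1a start. The plot of the neighbourhoods shows a different layout at each gene, with a tight group of 3 at Cdkn1a, a single peak at E2f1 and a wide array at Mycn.

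**Figure D2:**
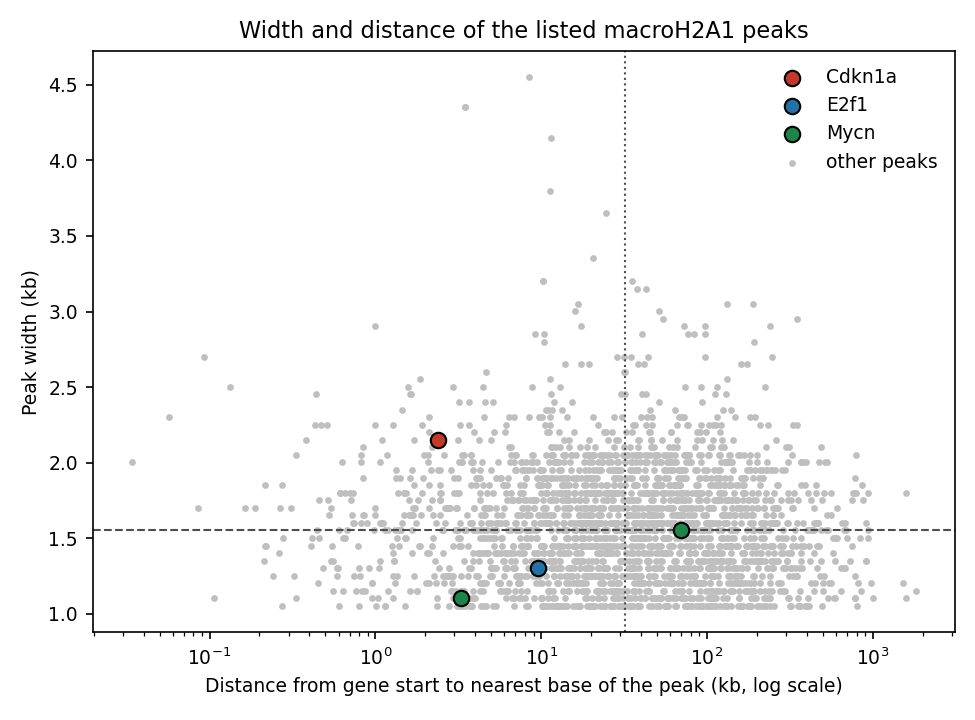
Peak width in kb against the gap between the gene start and the peak in kb, on a log scale, with each point 1 peak. The dashed line is the median width (1551 bp) and the dotted line the median distance (32.2 kb); the 30 peaks that cover a gene start are not drawn. The Cdkn1a peak lies above the median width, those of E2f1 and the nearer Mycn peak below it, and only the farther Mycn peak lies beyond the median distance.

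Peaks at nearly the same distance belonged to genes of different kinds. Some of the differences in distance are under the 50 bp step, so which peaks are nearest is not fully resolved. Among upstream peaks of other genes with a symbol, the 3 nearest in distance to the Cdkn1a peak were those of Chac1, which encodes a glutathione-degrading enzyme (2.43 kb), of Ramp3, a receptor-modifying protein gene (2.32 kb), and of the pepsinogen gene Pgc (2.44 kb). Their widths of 1301, 1201 and 1951 bp were all below the 2151 bp of Cdkn1a. For the closer Mycn peak they were those of the olfactory receptor gene Olfr391 (3.29 kb), Etaa1, a replication stress gene (3.29 kb), and Ndnl2, which encodes a subunit of the SMC5/6 complex (3.27 kb), with widths of 1051, 1151 and 1101 bp. For E2f1 they were those of the semaphorin receptor gene Plxnc1 (9.54 kb), the cardiac myosin gene Myl2 (9.62 kb) and the stress hormone gene Crh (9.67 kb). These were wider than the E2f1 peak, at 1851, 1651 and 1851 bp. For the farther Mycn peak they were those of the DNA-binding protein gene Arid5b (69.5 kb), the sialyltransferase gene St8sia4 (69.5 kb) and the actin-related gene Actrt2 (69.4 kb), with widths of 1651, 1101 and 1751 bp.

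The wider growth control machinery was read from 7 lists with 81 genes in all. Of these, 9 had an assigned peak, and 6 of the 78 genes other than Cdkn1a, E2f1 and Mycn did (7.69%; exact 95% binomial interval 2.88 to 16.0%, which covers counting error only). Among 21631 protein-coding genes the share was 6.16%. The lists were written with some of these peaks already known, and the 3 genes left out are still counted among all protein-coding genes. The 2 shares are therefore given side by side and were not tested against each other. An assigned peak within 10 kb of the start was found at 0 of these 78 genes and at 1.81% of all protein-coding genes. Across all 81 list genes there were 3 with such a peak, namely Cdkn1a, E2f1 and Mycn, so leaving them out made the count 0. The 0 is therefore not compared with the 1.81%, and with only 78 genes it would not be below it beyond counting error.

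Counted by family, the CDK inhibitor, E2F and DP, and MYC network lists each hold 1 of the 3 genes chosen for having a peak. Their shares could therefore not be 0 and are not compared with the 6.16% of all protein-coding genes. Cdkn1a was the only 1 of 7 CDK inhibitor genes with a peak, and E2f1 was the only 1 of 10 E2F and DP factor genes. In the MYC network 2 of 13 genes had one, the other being Mxi1, which encodes a MAX partner that opposes MYC. Its peak lay 22.8 kb upstream and was 1951 bp wide. None was assigned to the 3 pocket protein genes (Rb1, Rbl1 and Rbl2), to the 13 cyclin and kinase genes of the G1 and S phases or to the 13 genes of the G2 and M phases. Peaks near a list gene but assigned to a neighbouring gene were not counted. For each list of 13 genes, a count of 0 allows a share of up to 23.1% (3 counts of the total), so these counts are not below the 6.16% of all protein-coding genes beyond counting error.

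The p53 pathway list had 5 of 22 genes with a peak (22.7%; exact 95% binomial interval 7.82 to 45.4%), against 6.16% of protein-coding genes. They were Trp63 and Trp73, the relatives of the p53 gene, and Pmaip1, Perp and Gadd45g, which take part in cell death and stress responses. The Trp73 peak was inside the gene, 12.4 kb from its start. The Pmaip1 peak lay 31.8 kb upstream and the Trp63 peak 190 kb upstream. Those of Perp and Gadd45g lay downstream, 37.2 and 68.1 kb from the start. Trp53 itself and its regulators Mdm2 and Mdm4 had no assigned peak. The lists were written with some of these peaks already known, so their counts carry no test. For the same reason the interval of the p53 pathway list cannot be read as an excess over the 6.16%.

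All 4 peaks at Cdkn1a, E2f1 and Mycn were upstream, whereas those of the other 6 genes were upstream at 3, downstream at 2 and inside the gene at 1. Of the 4 peaks at Cdkn1a, E2f1 and Mycn, 1 was wider than the list's median and the farther Mycn peak equalled it. Of the 6 peaks of the other genes, whose median width was 1926 bp, 5 were wider than the list's median. Both sets were chosen with some of these peaks known, and the contrasts between them were not tested. The median distance of those 6 peaks was 34.5 kb, beside 32.2 kb for the whole list.

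**Figure D3:**
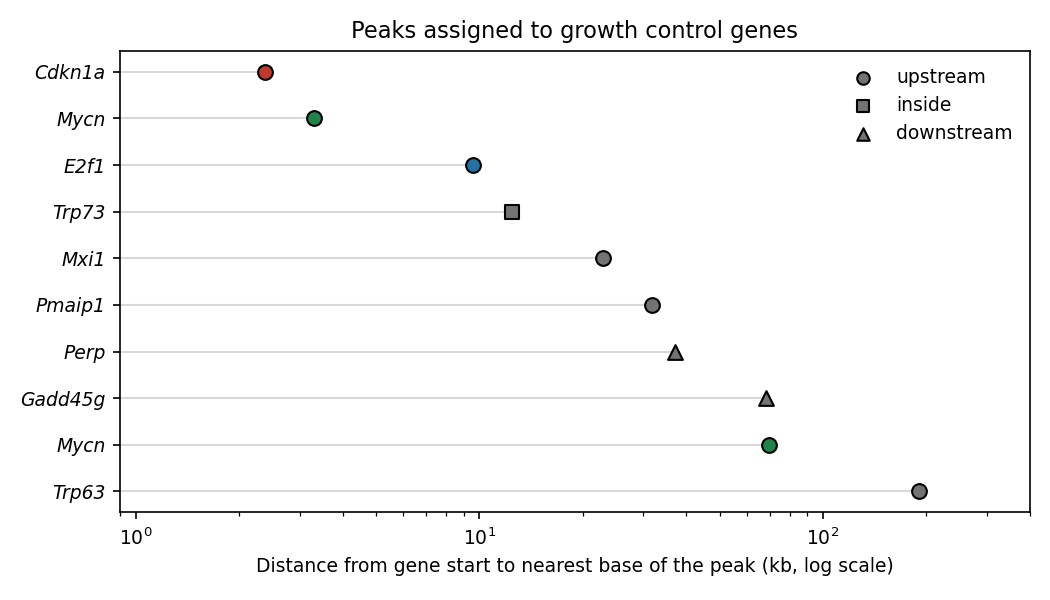
Gap between the gene start and the peak in kb, on a log scale, for each peak assigned to a gene of the 7 growth control lists. Coloured symbols are Cdkn1a, E2f1 and Mycn, grey symbols the other 6 genes, and the shape gives the side of the gene. The 3 closest peaks by this measure are those of Cdkn1a, Mycn and E2f1 (2.37, 3.31 and 9.56 kb).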

How the data were processed

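The authors deposited 1 list of 2560 macroH2A1 peaks. Bowtie and the mouse build NCBIM37 (mm9) are named in the submitters' processing notes. Peak names begin with CCAT, a peak caller, and the columns follow ChIPpeakAnno, with nearest-start assignment of genes, per the file headers and values. The caller's version, threshold and control were not given in the sources used here. All values in the deposited list are base pairs (coordinates, widths and distances), with no count or score per peak.

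The header is shifted by 1 column against the rows and was realigned. Distances were recomputed as the gap between the gene start and the nearer peak edge, and windows used the same measure. Distance and window code was tested on simulated data. Symbols were matched to RefSeq (GRCm38.p6) by symbol or synonym within a chromosome. All 3 genes matched. Its coordinates were used only for promoter sequences, gene order, gene lengths and the places of starts within a gene. Python 3.11.15 with pandas 2.3.3 was used. Genes named are the 3 themselves, genes with peaks within 200 kb, RefSeq neighbours, list genes with a peak and the 3 peaks nearest in distance. Genes, lists and settings were chosen with earlier results of these data known. Alternatives covered the distance measure, peak width, peak number, window size and symbol matching.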

Additional observations from a re-analysis of the deposited data

How the results depend on the processing

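By the deposited distance, which runs to the lower coordinate of the peak, the Cdkn1a gap was 4.52 kb instead of 2.37 kb, so that Mycn, unmoved at 3.31 kb, became the closest; E2f1 was unmoved too. From the midpoint the distances were 3.45 kb for Cdkn1a, 10.2 kb for E2f1 and 3.86 kb for Mycn, in the same order as the main values. By the midpoint the E2f1 peak lay just outside 10 kb, whereas the counts that follow use the nearer edge. Of the 4 peaks, 1 remained when only peaks wider than the median counted (that of Cdkn1a), 3 within 10 kb, 0 with overlap of the gene, 4 among the peaks with lower numbers in their names (up to the median number), and 6 with the Gm10168 peaks given to Mycn, an alternative added after the data were seen. The 8 peaks of the 200 kb windows became 5 within 50 kb, 13 within 500 kb, 3 among wider peaks and 8 with whole peaks inside. The 9 list genes became 3 within 10 kb, 6 among wider peaks, 9 with symbols on any chromosome and 6 without Cdkn1a, E2f1 and Mycn, the last also added later. Widths had no alternative. No paired analysis was possible because there is 1 library per antibody and no test. Unknown depth limits any statement on genes without a peak, and 1 library cannot show what a second culture would give.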

Other observations

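Beyond 200 kb, the Cdkn1a region of chromosome 17 stayed crowded, and up to 500 kb the further peaks were on the downstream side. Within 500 kb of the Cdkn1a start there were 7 peaks, a number reached at 3.33% of assigned gene starts (71 of 2132), against 5 at Mycn and 1 at E2f1. The 4 added peaks were all past Cdkn1a. They were 1 peak near Pi16 at 240 kb, 1 near Fgd2 at 327 kb and 2 at Pim1, which encodes a growth-promoting kinase, at 380 and 410 kb. The Pim1 peaks flanked that gene, 18.5 kb upstream and 10.4 kb downstream of its start, and the second was 2851 bp wide, wider than any other peak within 500 kb of the Cdkn1a start. That the added Cdkn1a peaks were all on 1 side depended on the 500 kb limit. Just outside it, on the upstream side, lay peaks assigned to Clps (525 kb), Gm749 (550 kb) and Fkbp5 (586 and 597 kb). The next ones on the downstream side were at 603 and 661 kb, assigned to 1110021J02Rik. At Mycn the peak added within 500 kb was inside Nbas, 424 kb upstream. These genes were named after their values were seen.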
